A study of Mus musculus with 6 samples.

Results

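The clustered replication histone genes of mouse liver were followed at the mRNA level in mice with and without deletion of *Surf4* in hepatocytes. Members were chosen by gene symbol, taking every linker histone gene named H1f and every core histone gene named H2ac, H2bc, H3c or H4c followed by a number, with earlier results of these data known. The symbols gave 72 of 35540 genes and 82 of 116748 transcripts in the deposited table, of which 12 were H1, 19 H2A, 17 H2B, 12 H3 and 12 H4 genes. Within this set *H2bc12* was selected on its difference between the genotypes, so its fold change is given as a description with no test.

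Replication histone genes encode the core histones H2A, H2B, H3 and H4, around which DNA is wrapped into nucleosomes, and the linker histone H1, which binds the DNA between them. They lie in clusters of near-identical copies, are transcribed mainly when a cell copies its DNA, and most give mRNAs without introns that end in a stem-loop bound by the protein *Slbp* in place of a poly(A) tail. Most hepatocytes of an adult liver are not dividing. A few of these genes, such as the linker histone gene *H1f0*, are known for polyadenylated mRNA that is made outside DNA replication.

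The livers of 6 mice gave 1 library each. In 3 mice the genotype was Surf4 fl/fl Alb-Cre+, and the 3 littermates used as controls were Surf4 fl/fl Alb-Cre-. Both groups carried 2 copies of a *Surf4* allele whose exon 2 lies between loxP sites, and the first group also carried a Cre recombinase transgene under the *Albumin* promoter, which acts in hepatocytes. The paper considers other cells of the liver the likely source of the *Surf4* mRNA that kept exon 2. The mice numbered 2 were the only females, 1 in each genotype, and those numbered 1 and 3 were males. The age of the sequenced mice was not given in the sources used here, and neither was whether poly(A) RNA was selected.

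Levels are TPM, the authors' abundance per transcript corrected for its length and scaled to 1000000 per mouse, and were summed here over the transcripts of each gene. Read numbers cannot be had from TPM, and the depth behind each value is unknown. *Surf4* itself had 59.0, 71.8 and 54.3 TPM in Alb-Cre+ replicates 1, 2 and 3 and 92.5, 94.5 and 92.5 TPM in the controls. The log2 fold change was -0.60 (SE 0.13) with a limma adjusted p of 1.00, or 0.472 when the replicate number was a block. All 3 Alb-Cre+ mice lay below all controls, although mRNA that has lost exon 2 still counts towards this level, so that it does not measure the deletion. The tissue label was borne out by *Alb*, the albumin gene, at 38059 to 55647 TPM. In whole liver, fewer cells of a type and less RNA per cell cannot be told apart.

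The sequence that sets this class of mRNA apart is the stem-loop after the coding part. All 82 transcripts were found in the GENCODE M21 annotation of the GRCm38 reference, and their sequences were searched on the transcript's own strand for an arm GGNNNN, a loop TTNN and a second arm NNNNCC complementary to the first, after the last coding codon. A match was found in 43 of 82 member transcripts (52.4%). The 141685 other annotated transcripts were searched over their whole length and not only after the coding part, and 258 of them (0.182%) held a match. These others take in histone genes outside the set. In the members the match came in 6 forms, of which 1 was held by 24 genes. *H2bc12* had a form held by 6 genes, among them the H2B gene *H2bc3*. Another form, that of *H4c8* and *H4c18*, was also held by 6 genes. The stem-loops of *H2bc12*, of this H2B relative *H2bc3*, of abundant H1, H2A and H4 genes, and of *H4c18*, described further on, are shown with both arms in capitals.
H2bc12: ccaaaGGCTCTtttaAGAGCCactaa
H2bc3: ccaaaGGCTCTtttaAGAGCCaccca
H1f2: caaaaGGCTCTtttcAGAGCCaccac
H2ac18: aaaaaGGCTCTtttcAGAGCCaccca
H4c8: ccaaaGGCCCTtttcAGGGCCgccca
H4c18: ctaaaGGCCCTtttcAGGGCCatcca

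These 6 genes are single-exon genes that lie, in GRCm38, at chr13:22035870-22036345 on the plus strand (*H2bc12*), chr13:23746734-23747241 on the plus strand (*H2bc3*), chr13:23738808-23740367 on the plus strand (*H1f2*), chr3:96245497-96246082 on the plus strand (*H2ac18*), chr13:23531050-23531519 on the plus strand (*H4c8*) and chr13:21831767-21832196 on the minus strand (*H4c18*). The *H2bc12* transcript has 476 bases, with 35 bases between its coding part and the stem-loop and 30 bases after the loop. No stem-loop of this kind was found in the transcripts of *H2bc4* and *H1f0*, both of which are abundant in these livers.

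The H2B genes are nearly the same in their coding part, which bears on how reads can be assigned to them. *H2bc12*, also named *Hist1h2bk*, has 378 coding bases and differs from *H2bc4* at 7 of them and at 2 encoded residues, from *H2bc23* and *H2bc24* at 5 bases and 1 residue each, and from *H2bc21* at 47 bases and 4 residues. Of all stretches of 31 bases in the *H2bc12* transcript, 75.3% also occur in another annotated gene, and 67.9% occur in *H2bc24*, the closest member. A read inside such a stretch does not tell *H2bc12* from the other gene, so its level depends on how the authors' program divided these reads. Coding bases 344 to 373 hold differences from every other H2B gene compared, and are shown for *H2bc12*, for the 3 other H2B genes with the highest levels and for *H2bc24*, with bases that differ from *H2bc12* in capitals.
H2bc12: gcaccaaggctgtcaccaagtatactagcg
H2bc4: gcaccaaggcCgtcaccaagtaCacCagcT
H2bc21: gcaccaaggcCgtcaccaagtaCacCagcg
H2bc8: gcaccaaggctgtcacTaagtaCacCagcT
H2bc24: gcaccaaggcCgtcaccaagtaCacCagcT

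A few of the 72 genes accounted for nearly all of the mRNA measured for this set. Of the members, 11 were listed at 0 TPM in every mouse, 25 were above 0 with a mean under 0.1 TPM, and 36 had a mean of at least 0.1 TPM and entered the tests. Only 13 reached a mean of 1 TPM and 7 a mean of 5 TPM, and these 7 held 95.2% to 98.0% of the summed member TPM in each mouse. They were *H2bc4* (H2B), *H2ac19* and *H2ac18* (H2A), *H1f0* and *H1f2* (H1), *H2ac24* (H2A) and *H4c8* (H4). No H3 gene was among them, and the highest H3 level was that of *H3c14* with a mean of 1.47 TPM. By location, 56 members lie on chromosome 13, 10 on chromosome 3, and 6 outside these clusters, all of them H1 genes.

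**Figure D1:**
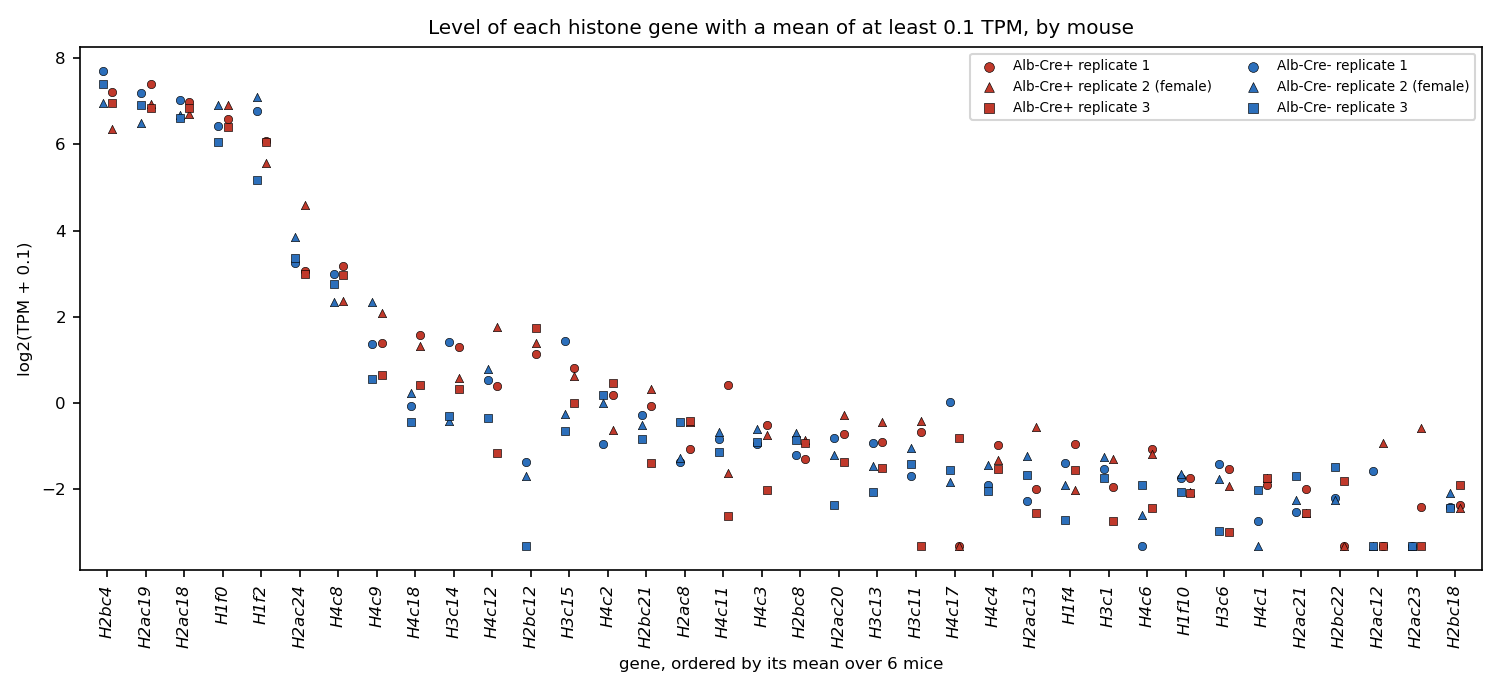
Level of the 36 tested histone genes (mean of 0.1 TPM or more), each point 1 mouse, on a log2(TPM + 0.1) axis, with Alb-Cre+ mice in red, Alb-Cre- mice in blue and the replicate numbers as symbols. The 7 genes on the left have means of at least 5 TPM, and *H2bc12* is the gene whose 3 red points stand farthest above its 3 blue points.

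*H2bc4*, an H2B gene on chromosome 13 whose annotated transcript has 2 exons and 745 bases after its coding part, was the most abundant member. It had 148, 81.3 and 125 TPM in Alb-Cre+ replicates 1, 2 and 3 and 209, 124 and 170 TPM in the controls. The female mouse was the lowest of each genotype, the groups overlapped, and *H2bc4* held 94.6% to 99.2% of all H2B TPM in every mouse.

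The H2A genes *H2ac18* and *H2ac19* are near-identical copies on chromosome 3. Every stretch of 31 bases of *H2ac19* also occurs in *H2ac18*, so that how their level is split between them is uncertain. All such stretches of *H2ac19* and 89.7% of those of *H2ac18* also occur in the annotated gene *Gm20634*, which is not a member, so that the sum of both is uncertain as well. *H2ac19* had 170, 122 and 115 TPM in Alb-Cre+ mice and 146, 89.9 and 120 TPM in controls, and *H2ac18* had 127, 104 and 114 TPM against 130, 102 and 97.6 TPM. Added together they came to 251 ± 39.7 TPM in Alb-Cre+ mice and 229 ± 43.3 TPM in controls (SD, n = 3 each), a difference smaller than the spread within each genotype. *H2ac24*, the next H2A gene, whose annotated transcript stops 3 bases after its stem-loop, had 8.29, 23.8 and 7.80 TPM in Alb-Cre+ mice and 9.40, 14.2 and 10.2 TPM in controls. The female mouse was the highest in both genotypes.

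Among the linker histone genes, *H1f0* had 96.1, 120 and 84.9 TPM in Alb-Cre+ mice and 86.4, 120 and 66.5 TPM in controls, again with the female highest in each genotype. It shared no stretch of 31 bases with another gene. *H1f2* had 67.9, 47.3 and 66.1 TPM in Alb-Cre+ mice and 109, 138 and 35.8 TPM in controls. The controls of *H1f2* therefore spanned the whole range of the Alb-Cre+ mice. The other H1 genes tested, *H1f4* and *H1f10*, had means of 0.218 and 0.171 TPM.

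Of the 12 H4 genes, 11 had a mean of at least 0.1 TPM, more than in any other family. *H4c8* had 8.89, 5.02 and 7.78 TPM in Alb-Cre+ mice and 7.88, 4.98 and 6.65 TPM in controls, with the female lowest in each genotype. *H4c9*, which lies 4291 bases from *H2bc12*, had 2.53, 4.14 and 1.48 TPM against 2.49, 4.93 and 1.36 TPM, with the female highest. *H4c12* had 1.21, 3.26 and 0.344 TPM against 1.34, 1.64 and 0.678 TPM, and its groups overlapped.

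The H3 genes of chromosome 3, *H3c14* and *H3c15*, had means of 1.47 and 1.31 TPM. *H3c15* had 1.65, 1.43 and 0.895 TPM in Alb-Cre+ mice and 2.62, 0.736 and 0.536 TPM in controls. *H3c14* has 2 annotated transcripts of 1820 and 1825 bases, and in the deposited values each mouse had its whole level on 1 of them. Both replicate 1 mice, at 2.37 and 2.57 TPM, had only the longer transcript, and the other 4 mice, at 1.40, 1.15, 0.646 and 0.713 TPM, had only the shorter. The split thus followed the replicate number and not the genotype, and every stretch of 31 bases in *H3c14* also occurs in another annotated gene.

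Transcripts in which a stem-loop was found had the higher median level, although none was found in the most abundant transcript, that of *H2bc4*. The 43 transcripts with a stem-loop had a median of 0.173 TPM and reached 127 TPM, and the 35 coding transcripts without one had a median of 0.0230 TPM and reached 143 TPM. In *H1f2* the annotation runs on for 840 bases after the stem-loop, while it stops 35 bases after it in *H2ac18*. An end of at most 5 annotated bases after the last coding codon was found for 16 transcripts, of which the highest, that of *H4c12*, had a mean of 1.41 TPM, and TPM of such short models depend on the annotated length. All 16 count as without a stem-loop, because their annotation ends too early to hold one. The transcripts of *H1f7*, *H1f8* and *H1f9*, at 0 TPM in every mouse, are also among those without. The difference of the medians therefore also depends on the annotation and on the genes listed.

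**Figure D2:**
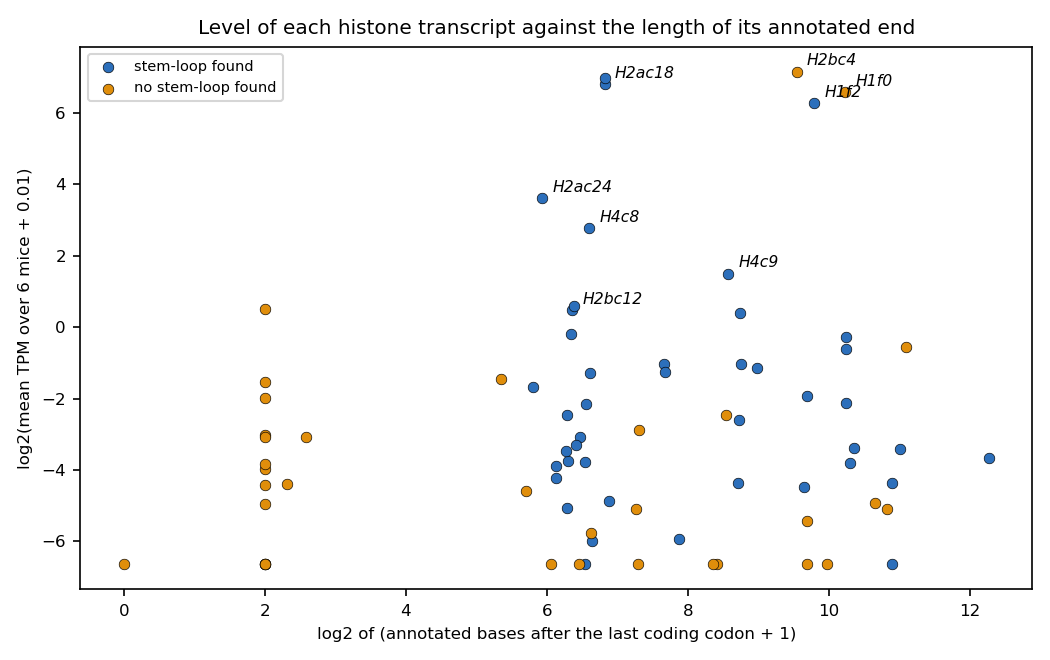
Mean level of each coding histone transcript over 6 mice, on a log2(TPM + 0.01) axis, against the log2 number of annotated bases after its last coding codon, with transcripts in which a stem-loop was found in blue and the others in orange. *H2bc4* and *H1f0*, both without a stem-loop, and *H2ac18* and *H1f2*, both with one, stand at the top, and *H2bc12* lies among short-ended stem-loop transcripts.

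The question put to these members was whether deletion of *Surf4*, a receptor that carries secreted proteins out of the endoplasmic reticulum, went with another level of histone mRNA. *H2bc12* was the member with the greatest difference. It had 2.08, 2.50 and 3.24 TPM in Alb-Cre+ replicates 1, 2 and 3 and 0.287, 0.208 and 0 TPM in the controls, and was listed at 0 in control replicate 3. The groups did not overlap, with means of 2.61 ± 0.587 TPM and 0.165 ± 0.148 TPM (SD, n = 3 each). The log2 fold change was 3.55 (SE 0.54) on log2(TPM + 0.1), a scale that understates the change of low genes, and it was 1.63 with a pseudocount of 1 TPM. Within the same-numbered mice the difference was 2.50, 3.08 and 5.06. As *H2bc12* was selected on this contrast, these values carry no test.

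The place of *H2bc12* among its paralogs differed accordingly. Among the 17 H2B genes it ranked 2 in all 3 Alb-Cre+ mice, after *H2bc4*, and 4, 5 and 10 in the controls. Of the H2B TPM that did not belong to *H2bc4* it held 57.5%, 53.7% and 68.7% in Alb-Cre+ mice and 15.5%, 11.2% and 0% in controls. It remained a small part of the mRNA of the members, at 0.322% to 0.606% of the summed member TPM in Alb-Cre+ mice. The other H2B genes without *H2bc4* and *H2bc12* summed to 1.73 ± 0.376 TPM in Alb-Cre+ mice and 1.55 ± 0.108 TPM in controls, so that the difference of *H2bc12* was not seen in them as a group.

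The H2B genes closest to *H2bc12* in sequence had low levels. *H2bc24*, the closest in sequence, was listed at 0.0299, 0 and 0.0871 TPM in Alb-Cre+ mice and at 0 in every control, and *H2bc23* was at or under 0.0806 TPM in every mouse. *H2bc4* had far more TPM, and lower values in Alb-Cre+ mice within each same-numbered pair, and the part of a shift of reads from *H2bc4* to *H2bc12* was not tested. The genes next to *H2bc12* overlapped between the genotypes. *H2ac12*, 302 bases away on the opposite strand, had 0, 0.421 and 0 TPM in Alb-Cre+ mice and 0.235, 0 and 0 TPM in controls. No annotated gene overlaps *H2bc12*.

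**Figure D3:**
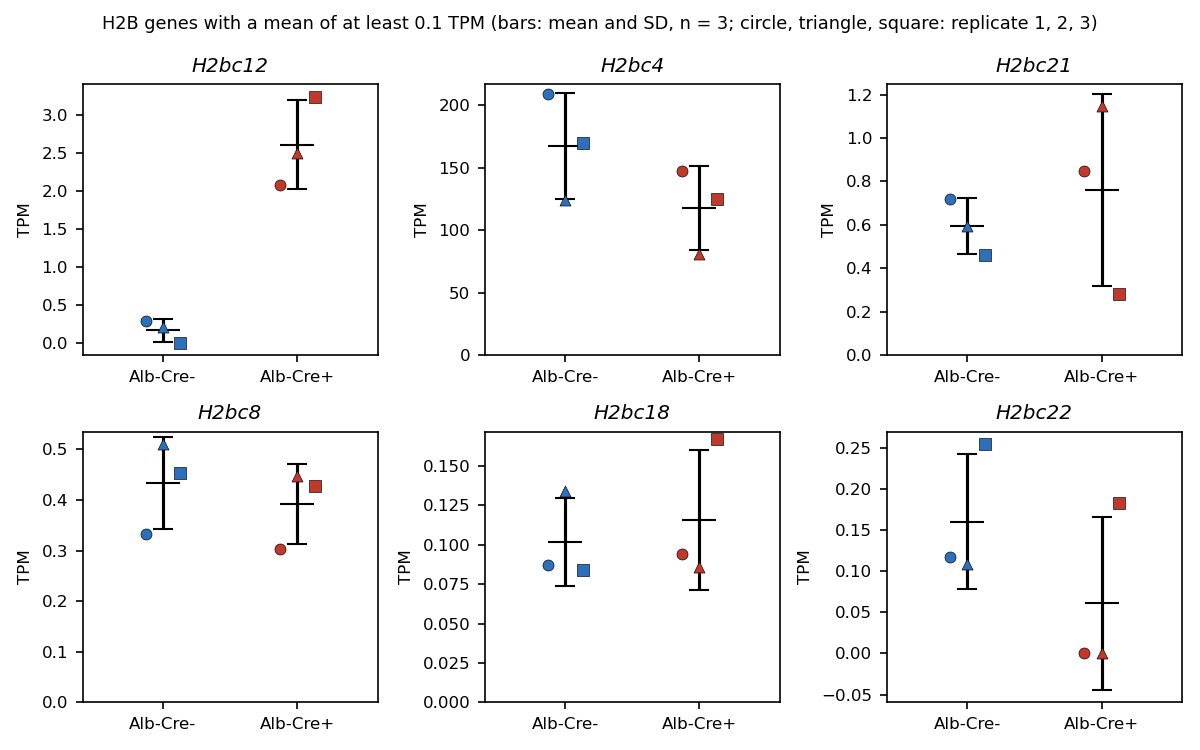
TPM of the 6 tested H2B genes, by genotype, with a separate linear axis for each gene, 1 point per mouse, and the mean and SD of 3 mice as bars. Only for *H2bc12* do all 3 Alb-Cre+ mice lie above all 3 controls, while for *H2bc4* the Alb-Cre+ mean of 118 TPM is below the control mean of 168 TPM with overlapping mice.

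The other histone genes were set beside all genes tested. By limma with Benjamini-Hochberg adjustment over all genes, 0 of 36 tested members and 0 of 14189 tested genes (0%) had an adjusted p under 0.01. This test did not call *Surf4* either, so a gene without a call is not thereby shown to be unchanged. The paper, by DESeq2 at a false discovery rate of 0.01, reported a limited number of changed genes between these genotypes. Leaving out *H2bc12*, which was selected on this contrast, an unadjusted p under 0.05 was found for 1 member, *H4c18*, beside 1.76% of all tested genes. Values did not overlap between the genotypes for 2 of the members other than *H2bc12*, namely *H4c18* and *H4c1*, beside 4.9% of all tested genes. Of these, *H4c1* met the minimum mean of 0.1 TPM only through its Alb-Cre+ values. The median log2 fold change of the 36 members was 0.11, or 0.087 without *H2bc12*, against -0.0017 for all tested genes, and it moved with the mice included. Without Alb-Cre+ replicate 2 it was -0.033, with -0.12 for all tested genes, and without Alb-Cre+ replicate 3 it was 0.33, with 0.11 for all. Without control replicate 2 it was 0.18, with 0.049 for all, and without control replicate 3 it was 0.011, with -0.046 for all.

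Directions were mixed within the families. The log2 fold change was above 0 for 23 members, *H2bc12* among them, and below 0 for 13, with 8 of 9 H2A, 7 of 11 H4, 3 of 6 H2B, 3 of 6 H3 and 2 of 4 H1 genes above 0. The family medians were 0.20 for H2A, 0.14 for H4, 0.10 for H3, 0.010 for H1 and -0.013 for H2B. In the same-numbered pairs, 8 members, again with *H2bc12*, were higher in all 3 pairs and 6 lower in all 3, beside 23.9% of all tested genes that kept 1 direction in all 3. The number of members called depended on the pairing: with the replicate number as a block, 3 members other than *H2bc12* had an unadjusted p under 0.05 (*H4c18*, *H2bc4* and *H2bc22*), in place of 1 without it, beside 4.69% of all tested genes, and again none had an adjusted p under 0.01. Of these, *H2bc22* met the minimum mean of 0.1 TPM only through its control values.

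**Figure D4:**
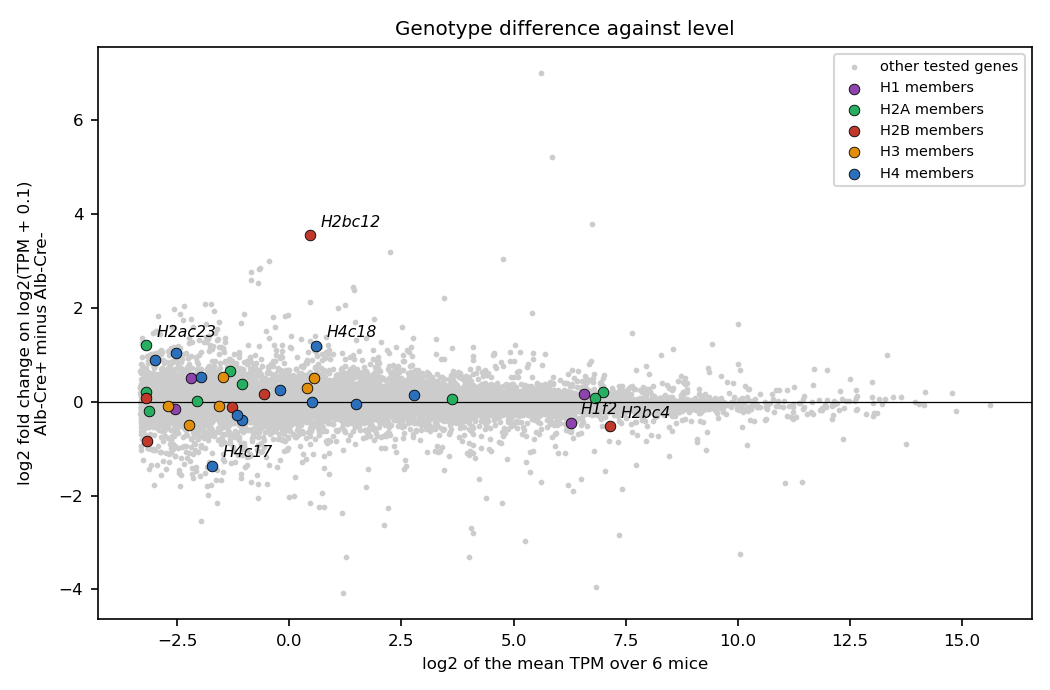
Log2 fold change between the genotypes (Alb-Cre+ minus Alb-Cre-, on log2(TPM + 0.1)) of 14189 tested genes in grey and of the 36 histone genes in the colours of their families, against the log2 mean TPM over 6 mice. *H2bc12* at 3.55 stands apart from the other histone genes, which lie between -1.36 and 1.21.

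*H4c18*, an H4 gene on chromosome 13, had the smallest p of the members other than *H2bc12* without the replicate block, and *H2bc4* had it with the block or with sex as a covariate. *H4c18* had 2.89, 2.39 and 1.23 TPM in Alb-Cre+ replicates 1, 2 and 3 and 0.853, 1.07 and 0.641 TPM in the controls. All 3 Alb-Cre+ mice lay above all controls. The log2 fold change was 1.20 (SE 0.38) with a limma adjusted p of 1.00, or 0.555 when the replicate number was a block, so the difference did not pass the test. Of its stretches of 31 bases 87.5% occur in another gene, most of them in *H4c17*, which went the other way with 0, 0 and 0.470 TPM against 0.922, 0.180 and 0.238 TPM and the largest negative log2 fold change of the members at -1.36 (SE 0.82). Without single mice the log2 fold change of *H4c17* ran from -2.20 to -0.79.

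*H2bc4* had a log2 fold change of -0.52 (SE 0.27) with a limma adjusted p of 1.00. The differences within pairs were -0.50, -0.61 and -0.44, which are closer to each other than the mice of a genotype, and with the replicate block the SE was 0.090 and the adjusted p 0.454. The call was the same, and without Alb-Cre+ replicate 2 the log2 fold change was -0.27. *H4c1*, at 0.167, 0.197 and 0.197 TPM against 0.0495, 0 and 0.148 TPM, was higher in every Alb-Cre+ mouse than in every control, with a log2 fold change of 0.89 (SE 0.42) and a limma adjusted p of 1.00. Its mean was 0.187 TPM in Alb-Cre+ mice and 0.0657 TPM in controls, so it met the minimum of 0.1 TPM only through the former.

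The remaining large differences were of genes near 0.1 TPM. *H2ac23* had the largest positive log2 fold change after *H2bc12*, at 1.21 (SE 0.68), with 0.0873, 0.566 and 0 TPM in Alb-Cre+ mice and 0 in every control. *H2bc22* had 0, 0 and 0.183 TPM in Alb-Cre+ mice and 0.118, 0.109 and 0.255 TPM in controls, a log2 fold change of -0.84 (SE 0.52), and was lower in all 3 pairs, by -1.12, -1.06 and -0.33. *H2ac23* met the minimum mean of 0.1 TPM only through its Alb-Cre+ values. *H2bc22* met it only through its controls, with means of 0.0609 TPM in Alb-Cre+ mice and 0.160 TPM in controls. Their fold changes are therefore given as a description. In neither gene was the adjusted p under 0.01. The log2 fold changes of the other abundant members were 0.20 for *H2ac19*, 0.074 for *H2ac18*, 0.17 for *H1f0*, -0.45 for *H1f2*, 0.058 for *H2ac24*, 0.14 for *H4c8* and -0.038 for *H4c9*, with SE from 0.15 to 0.53.

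The summed mRNA of the members did not differ between the genotypes by more than its spread. Of the listed replacement histone variants, which summed to 685 to 1378 TPM per mouse, only *H1f0* and *H1f10* are in this sum. The 72 members summed to 647, 529 and 536 TPM in Alb-Cre+ mice and 716, 610 and 517 TPM in controls, or 571 ± 66.6 TPM and 614 ± 99.2 TPM (SD, n = 3 each). The log2 fold change of the sum was -0.10, and it ranged from -0.22 to 0.017 when each mouse was left out. By family the sums were 161 ± 8.59 and 186 ± 78.5 TPM for H1, 266 ± 35.8 and 241 ± 41.6 TPM for H2A, 122 ± 33.3 and 169 ± 42.6 TPM for H2B, 4.31 ± 1.61 and 3.72 ± 2.35 TPM for H3, and 16.6 ± 3.03 and 14.1 ± 1.90 TPM for H4, in Alb-Cre+ mice and controls. Only the H2B sum, nearly all *H2bc4*, differed by more than its spread, with a log2 fold change of -0.48 and a pooled SD of 0.40. Members with a mean under 5 TPM summed to 20.7 ± 5.59 TPM in Alb-Cre+ mice and 15.1 ± 4.16 TPM in controls. Without *H2bc12* these sums were 18.1 ± 6.06 and 14.9 ± 4.01 TPM. Transcript by transcript, 0 of 36 tested member transcripts had an adjusted p under 0.01, as did 0 of 41597 transcripts (0%), and leaving out that of *H2bc12*, an unadjusted p under 0.05 was found for 1 member transcript, that of *H4c18*, beside 2.84% of all tested transcripts.

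Sex was not used to choose the members, and could be tested with genotype in the model, although both females carry replicate number 2, so that sex and whatever that number marks cannot be told apart. By limma, 0 of 36 members had an adjusted p under 0.01 between females and males, beside 0.514% of all tested genes. An unadjusted p under 0.05 was found for 7 members beside 28.7% of all tested genes, and values of the 2 females and 4 males did not overlap for 8 members beside 41.6%. Neither share of the members was above that of all genes. The median log2 difference, female minus male, was 0.29 for the members and 0.26 for all tested genes, and under scaling by median of ratios it was 0.032 and -0.011, so a single gene's difference is to be read against that shift.

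*H2bc4* was the member with the smallest adjusted p between the sexes. The females had 81.3 and 124 TPM and the 4 males from 125 to 209 TPM, which did not overlap. Its log2 difference was -0.67 (SE 0.13) with a limma adjusted p of 0.0372, and -0.96 under median of ratios. *H4c8* was also lower in both females, at 5.02 and 4.98 TPM, than in the males, with a log2 difference of -0.62 (SE 0.16) and a limma adjusted p of 0.0664.

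In the opposite direction, *H2ac24* had 23.8 and 14.2 TPM in the females and 7.80 to 10.2 TPM in the males, a log2 difference of 1.04 (SE 0.24) with a limma adjusted p of 0.0505. *H4c9* had 4.14 and 4.93 TPM in the females, above every male, with a log2 difference of 1.21 and a limma adjusted p of 0.0729, and *H1f0* had 120 TPM in both females, with 0.53 and 0.0761. The difference of *H1f0* was 0.25 under median of ratios, close to the shift between the scalings. *H4c12* and *H2ac13* had log2 differences of 1.43 and 1.23 with limma adjusted p of 0.153 and 0.103. *H3c1*, named after its values were seen, was the other member without overlap. For *H2bc12* the log2 difference was 0.30 (SE 0.56) with a limma adjusted p of 0.754.

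Marker sums of most other liver cell types were higher in the females, and those of erythroid cells were lower. The 6 Kupffer cell markers, all of them tested, summed to 461 and 424 TPM in the females and 116 to 181 TPM in the males. The 8 neutrophil markers, of which 7 were tested, summed to 303 and 148 TPM in the females and 23.7 to 54.1 TPM in the males. No marker of the Kupffer cell or neutrophil list was listed at 0 in every mouse. The sums of B cell, T and NK cell, sinusoidal endothelium and stellate cell markers were also higher in both females than in every male. Erythroid sums went the other way, with 133 and 104 TPM in the females and 175 to 411 TPM in the males. Cholangiocyte and hepatocyte sums overlapped between the sexes. Of all tested genes, 41.6% had values that did not overlap between the sexes. The part of these cells in the histone values of the females was not tested.

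**Figure D5:**
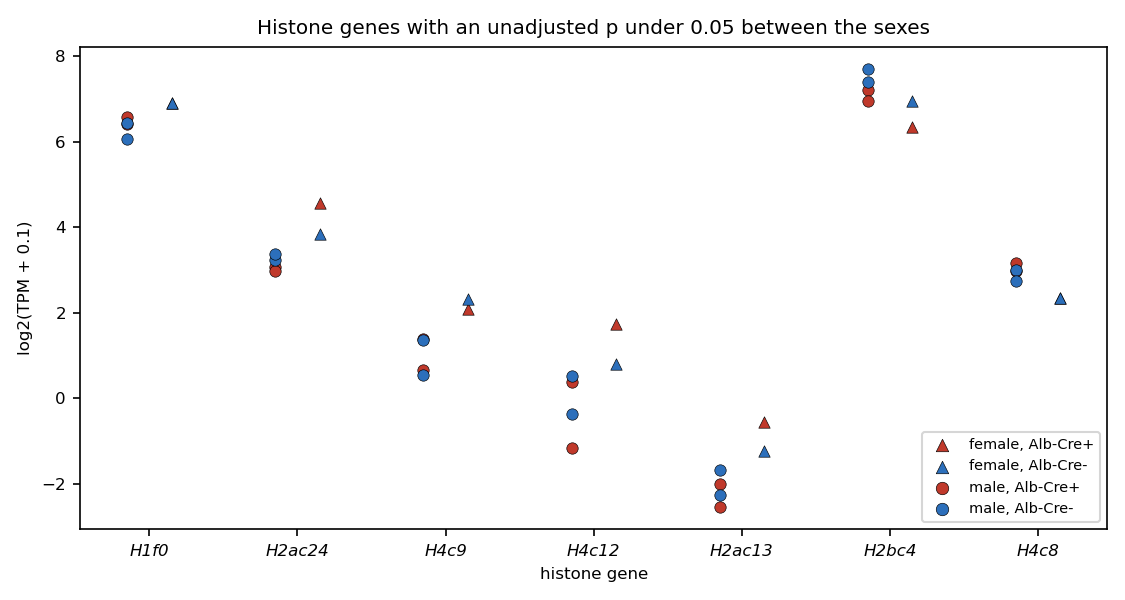
Level of the 7 histone genes with an unadjusted p under 0.05 between the sexes, on a log2(TPM + 0.1) axis, with females as triangles, males as circles, Alb-Cre+ mice in red and Alb-Cre- mice in blue. *H2bc4* and *H4c8* are lower in both females than in all 4 males, and the other 5 genes are higher.

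Genes of DNA replication and division, with which replication histones are known to be made, were read from a list of 26 genes of S phase, the phase of DNA copying, and one of 16 genes of mitosis. None of the 24 and 14 genes tested had a limma adjusted p under 0.01 between the genotypes. The S phase genes had 8 log2 fold changes above 0 and 16 below with a median of -0.074, and the mitosis genes 10 above and 4 below with a median of 0.15. *Rrm2*, a subunit of ribonucleotide reductase, was the only one of the S phase list with an unadjusted p under 0.05. It had 5.17, 11.8 and 8.51 TPM in Alb-Cre+ mice and 2.35, 6.66 and 3.44 TPM in controls, which overlapped, with a log2 fold change of 1.07 and an adjusted p of 1.00. *Mki67*, a marker of dividing cells, was at 0.0715, 0.368 and 0.0889 TPM against 0.0883, 0.259 and 0.0961 TPM, with the female highest in each genotype.

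The factors that make and finish histone mRNA gave no call either. Of 16 tested, 5 had log2 fold changes above 0 and 11 below, with a median of -0.028, and none passed an adjusted or unadjusted threshold. *Slbp*, the stem-loop binding protein gene, had 7.20, 7.54 and 5.89 TPM in Alb-Cre+ mice and 6.997, 7.32 and 9.21 TPM in controls, which overlapped. Of 15 histone chaperone genes, which escort histones to DNA, 5 were above 0 and 10 below with a median of -0.058. Among these *Chaf1b*, a subunit of chromatin assembly factor 1, had 0.760, 1.24 and 0.802 TPM against 1.24, 1.78 and 1.97 TPM, which overlapped, with a log2 fold change of -0.77 and a limma adjusted p of 1.00. Values did not overlap between the genotypes for 2 of the 15, *Nasp* and *Hira*, beside 4.9% of all tested genes. The 11 replacement variant genes tested, known in large part for histones made outside DNA replication, had 3 above 0 and 8 below with a median of -0.060. The members *H1f0* and *H1f10* are also in this list.

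The makeup of the livers was followed with 9 marker lists, in which no gene had an adjusted p under 0.01 between the genotypes. The 8 hepatocyte markers summed to 70390 to 92086 TPM in Alb-Cre+ mice and 86399 to 97458 TPM in controls. Among them *Apoa1*, an apolipoprotein gene, had 10222, 9779 and 8802 TPM in Alb-Cre+ mice and 17603, 20844 and 15764 TPM in controls, with no overlap, a log2 fold change of -0.91 and a limma adjusted p of 1.00. The ranges of all 9 lists overlapped between the genotypes. Within the same-numbered pairs, the hepatocyte sums were lower in all 3 Alb-Cre+ mice (92086, 81779 and 70390 TPM against 97458, 96835 and 86399 TPM) and the neutrophil sums higher in all 3 (42.5, 303 and 54.1 TPM against 36.5, 148 and 23.7 TPM). The single markers were mixed. Of the hepatocyte markers, 3 had log2 fold changes above 0 and 5 below, and of the tested neutrophil markers, 5 were above 0 and 2 below. Values did not overlap between the genotypes for 2 hepatocyte markers, *Ttr* and *Apoa1*, beside 4.9% of all tested genes. The block brought an unadjusted p under 0.05 to 3 of 7 neutrophil markers in place of 0, to 1 of 6 Kupffer cell markers in place of 0 and to 2 of 8 hepatocyte markers in place of 1. Of all tested genes, 4.69% had such a p with the block and 1.76% without it. The other marker lists had no such gene with or without the block. The part of these cells in the histone values was not tested. The ranges of the other lists were 133 to 311 TPM against 104 to 411 TPM for erythroid markers, 42.5 to 303 against 23.7 to 148 for neutrophil markers, and 116 to 461 against 158 to 424 for Kupffer cell markers. B cell markers summed to 2.39 to 6.39 TPM against 2.29 to 7.06, T and NK cell markers to 2.16 to 4.19 against 1.74 to 5.65, and cholangiocyte markers to 2.24 to 3.37 against 2.74 to 4.02. Sinusoidal endothelium markers summed to 61.8 to 153 TPM against 87.0 to 133, and stellate cell markers to 94.9 to 196 against 68.7 to 203.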

How the data were processed

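The samples were livers of 6 mice, 3 of each genotype, grouped by the labels. The authors deposited TPM per transcript and mouse in a table named for Salmon, while their methods describe STAR and RSEM on GRCm38, with versions not given in the sources used here. A second deposited table of their DESeq2 comparison (mean normalized count, log2 fold change, standard error, statistic and p-values) was not used. Members and gene lists were chosen with earlier results of these data known.

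TPM were summed per gene symbol, and 163 transcripts without a symbol (0.0515% to 0.0887% of TPM) were left out. Genes whose mean was 0.1 TPM or more were fitted in R 4.3.3 with limma 3.58.1 (empirical Bayes with a trend) on log2(TPM + 0.1), and p-values were adjusted by Benjamini-Hochberg over all tested genes, with a threshold of 0.01. The fit was tested on simulated data. P-values measure the spread between these mice.

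Deviations from the genotype mean correlated at r = 0.367, 0.588 and 0.370 between mice numbered 1, 2 and 3 across genes. Between males of unlike number r was 0.0914 and 0.171, and between a female and a male -0.444 to -0.351. As each mean held 3 mice, the deviation of the female moves those of both males, so these r include sex. Same-numbered mice were compared as pairs and the number served as a block in an alternative, while the main fit held genotype alone. The labels do not say what the numbers stand for, except that both mice numbered 2 are female.

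The genes named are *H2bc12*, members with a mean of at least 1 TPM, with an unadjusted p under 0.05 by genotype or sex, without overlap between genotypes or with the 3 largest fold changes in each direction, list genes with an unadjusted p under 0.05 by genotype, *Slbp*, *Mki67* and *Surf4*. Other genes named were chosen after their values were seen. Alternatives were a block for the replicate number, a sex covariate, a pseudocount or a minimum of 1 TPM, no filter, median of ratios, limma without trend, an adjusted p of 0.05, and each mouse left out. Shared sequence was counted as stretches of 31 bases in GENCODE M21 transcripts.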

Additional observations from a re-analysis of the deposited data

How the results depend on the processing

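No member, member transcript or listed gene had an adjusted p under 0.01 by genotype, and no member by sex, under any alternative run. At an adjusted p of 0.05, 1 member was called by sex (*H2bc4*), against 3 under median of ratios (*H2ac19*, *H2bc4* and *H4c8*) and none by limma without trend. With a minimum or a pseudocount of 1 TPM the members called were *H2ac24* and *H2bc4*, and without a filter *H2bc11* and *H3c10*. When each mouse was left out, the only member called was *H2bc4*, and only without control replicate 3. With *H2bc12* counted, 4 members had an unadjusted p under 0.05 by genotype with the replicate block, in place of 2. The block also added list genes at that unadjusted p, and changed no call at an adjusted p of 0.01. Without a filter that count was also 4, and it was 2 to 5 when each mouse was left out. Members without overlap between the genotypes, 3 with *H2bc12*, were 5 without a filter and 5 to 11 when each mouse was left out, where groups of fewer mice overlap less often by construction. The median log2 fold change of the members, 0.11, ran from -0.033 to 0.33 over the mice left out. The log2 fold change of *H2bc12* was 1.63 with a pseudocount of 1 TPM, which weighs low values less, and 2.95 to 3.93 over the mice left out. Scaling by median of ratios moved the median of all genes between the sexes from 0.26 to -0.011. TPM hold no depth, so counting error at levels under 1 TPM is unknown, and genes of near-identical sequence cannot be fully separated.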
